A study of Mus musculus with 8 samples.

Results

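The mitochondrial carrier family Slc25 was examined in whole mouse brain by RNA-seq of polyadenylated RNA. Its members were all genes of the count table whose symbol is Slc25a followed by a number, which gave 47 of 34299 genes. They were ordered into 10 substrate classes from textbook knowledge. The proteins of this family sit mostly in the inner mitochondrial membrane and exchange nucleotides, phosphate, carboxylates, amino acids, cofactors and iron between the cytosol and the matrix. The ADP/ATP carriers deliver the ATP made by oxidative phosphorylation. In brain, the aspartate/glutamate and oxoglutarate carriers run the malate-aspartate shuttle, which moves reducing equivalents into mitochondria, and the glutamate carriers feed a neurotransmitter into mitochondrial metabolism.

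There were 3 groups. The WT day 15 group held 3 libraries from wild-type fetuses at gestation day 15, the KO day 15 group held 3 libraries from Cav1 knockout fetuses at the same day, and the KO week 70 group held 2 libraries from Cav1 knockout brains in the ageing animal. Cav1 encodes caveolin 1, the coat protein of caveolae, and its loss is shared by both ages of knockout, so that age was compared within the knockout alone. Wild-type brains of week 70 were not analysed here. Strain, litter, pooling of fetuses and batch are not given in the labels. The labels call the fetal samples biological replicates, and the 2 week 70 libraries differ in the sex markers given next, so they are not repeat libraries of 1 RNA sample.

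Counts of Cav1 itself were 367, 218 and 329 in the WT fetal replicates 1 to 3, but 0, 3 and 1 in the fetal knockout and 1 and 5 at week 70. Total counts ran from 19414747 to 20833397 in WT fetuses, from 14110031 to 15245283 in KO day 15 and from 18924304 to 20203233 in KO week 70. Depth thus separated the fetal genotypes completely, and any batch and the genotype cannot be told apart. KO week 70 replicate 1 had 7969 counts of Xist and 0 of the Y-linked Ddx3y, while replicate 2 had 4 and 1137, so the 2 libraries of that group differed in sex markers. All fetal libraries held at least 54531 counts of Xist and at most 3 of Ddx3y. The comparison of ages thus sets such libraries against 1 library with Xist and 1 with Ddx3y. Age cannot be told apart from any difference in library making between these groups, nor fully from sex. WT day 15 replicate 1 stood apart in the summed level of 9 fibroblast and meningeal markers, at 4478 CPM (counts scaled to a common library size) against 330 and 549 in the other WT libraries and 82.1 to 155 in KO day 15. The same library was also high in the sum of 12 skeletal muscle markers, at 72.0 CPM against 13.9 and 14.4 in the other WT libraries. That sum was 13.7 to 28.4 CPM in KO day 15 and 39.8 and 54.5 in KO week 70. Its part in the values of the carriers was not tested.

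Levels are given as CPM scaled by the TMM method over all 8 libraries, and 3 counts correspond to 0.140 to 0.207 CPM, a limit that covers counting error only. Genes were tested with edgeR's two-sided quasi-likelihood test with Benjamini-Hochberg adjustment over all genes tested, and a gene is said to have risen or fallen where its adjusted p was under 0.05. The fits scaled only their own libraries, so a log2 ratio of the printed CPM differs from the fitted log2 fold change by -0.04 at day 15 and by 0.10 for age. Both comparisons use the KO day 15 libraries, and their values are set side by side without a test of one against the other.

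In the fetal knockout, the members that fell included carriers of amino acids, of di- and tricarboxylates and of ATP-Mg, and the members that rose included carriers of nucleotides and cofactors. At day 15, 40 of the 47 members could be tested, and 24 passed, 11 higher and 13 lower in KO, or 60.0% against 62.6% of all 19147 genes tested. The share higher was 27.5% among members and 30.1% among all genes, and the share lower was 32.5% in both. The median log2 fold change of the tested members was 0.09, against 0.03 over all genes. The members' fold changes lay between -1.05 and 0.80, and 1 member, Slc25a13, passed with a change of at least 1 on the log2 scale (2.5%, against 19.3% of all genes). The 3 KO and 3 WT libraries did not overlap in 24 of the tested members (60.0%, against 68.4% of all genes).

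The 7 members that were not tested at day 15 were Slc25a2, Slc25a21, Slc25a31, Slc25a41, Slc25a43, Slc25a48 and Slc25a54, none of which exceeded 13 counts in a fetal library. The balance of directions moved with the scaling: under upper-quartile scaling 17 members were higher and 10 lower, and the median over all genes shifted from 0.03 to 0.20. It also moved when each library's trend with transcript length and GC content was removed, which left 11 members higher and 7 lower, of which 6 and 5 were called in the same direction without that correction. The fetal log2 fold change had a Spearman correlation of -0.39 with length and -0.48 with GC content over all tested genes, and of 0.07 and -0.39 over the 40 members, given as a description across genes. Without the filter on low counts 4 members were higher, and the rises that did not pass included those of Slc25a14, Slc25a20, Slc25a27, Slc25a28, Slc25a33 and Slc25a36. DESeq2 did not call Slc25a20 and Slc25a33, and the falls of Slc25a5 and Slc25a38 did not pass when only protein-coding genes were fitted. Calls that the length and GC correction ended are named with each class.

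**Figure D1:**
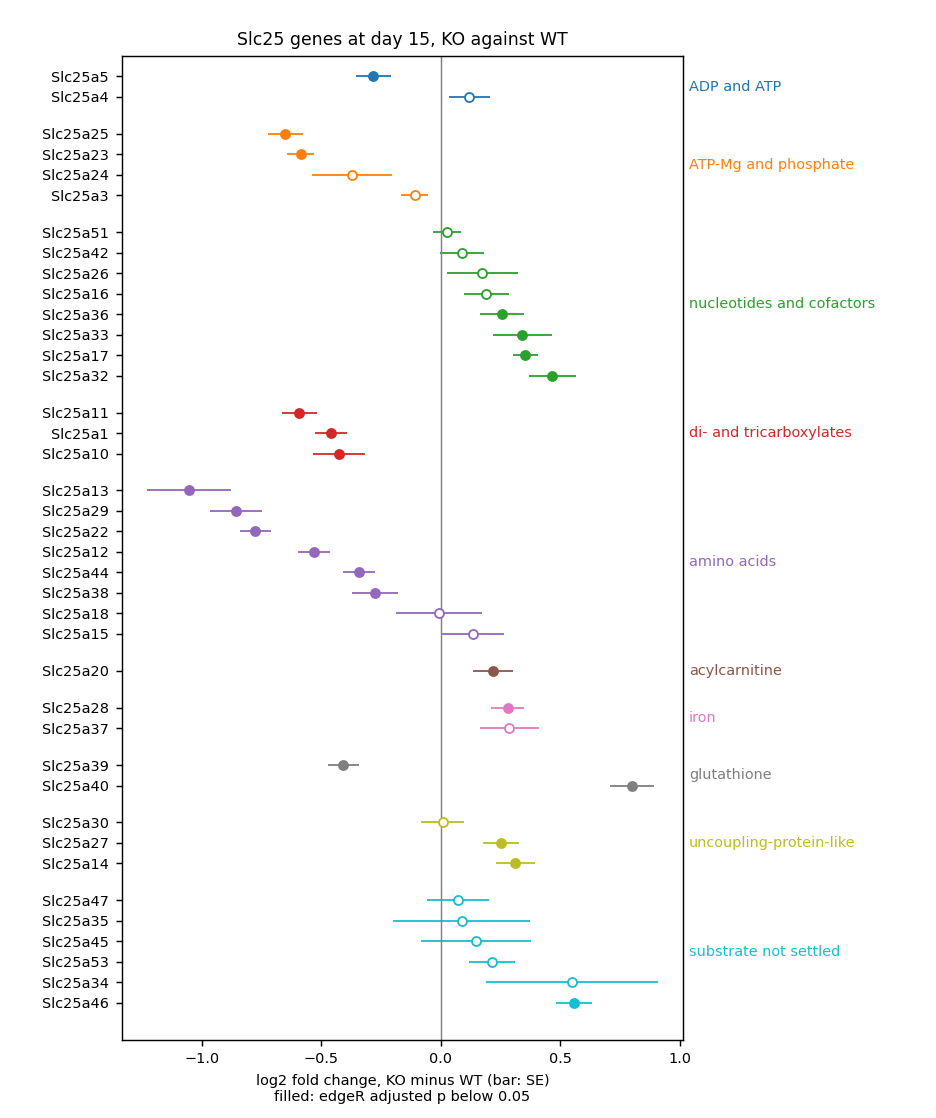
Fitted log2 fold change of the tested Slc25 genes at day 15, all but 1, KO minus WT, grouped by substrate class; bars are the standard error and filled points passed edgeR's adjusted p of 0.05. The points lie between -1.05 for Slc25a13 and 0.80 for Slc25a40, and the amino acid class has no called gene above 0.

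Most carriers were higher in knockout brain at week 70 than in the fetal knockout. Of 41 members tested by age, 27 rose and 10 fell from day 15 to week 70, or 90.2% called against 82.0% of all 20000 genes tested. The share that rose was 65.9% among members and 37.6% among all genes, while the share that fell was 24.4% against 44.4%. The members' median log2 fold change was 0.75, against -0.19 over all genes, with a range from -1.68 for Slc25a27 to 5.03 for Slc25a18. Changes of at least 1 on the log2 scale were called for 23 members (56.1%, against 60.5%), and the groups did not overlap for 37 members (90.2%, against 87.9%). Of the 40 members tested in both comparisons, week 70 lay above all 6 fetal libraries for 26 (65.0%, against 33.1% of all genes) and below them for 8 (20%, against 40.7%). Upper-quartile scaling shifted the median over all genes to -0.44 and the members' median to 0.50, and 24 members then rose and 12 fell. With the correction for length and GC content, 22 rose and 9 fell. The rises of Slc25a10, Slc25a37 and Slc25a45 did not pass under upper-quartile scaling or among protein-coding genes only, and the falls of Slc25a28 and Slc25a32 did not pass in 1 fit of all 8 libraries.

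The family's share of all counts was 0.224% to 0.229% in WT fetuses, 0.238% to 0.247% in KO fetuses, and 0.327% and 0.339% in KO week 70. On the TMM scale the summed level was 2206 to 2237 CPM in WT fetuses, 2027 to 2091 in KO day 15 and 4266 and 4521 in KO week 70. The order of the fetal genotypes therefore differs between the raw share, where KO was higher, and the TMM scale, where KO was lower, and week 70 was highest on both. In bulk brain, fewer cells of a type and less RNA per cell cannot be told apart, which applies to every level below.

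**Figure D2:**
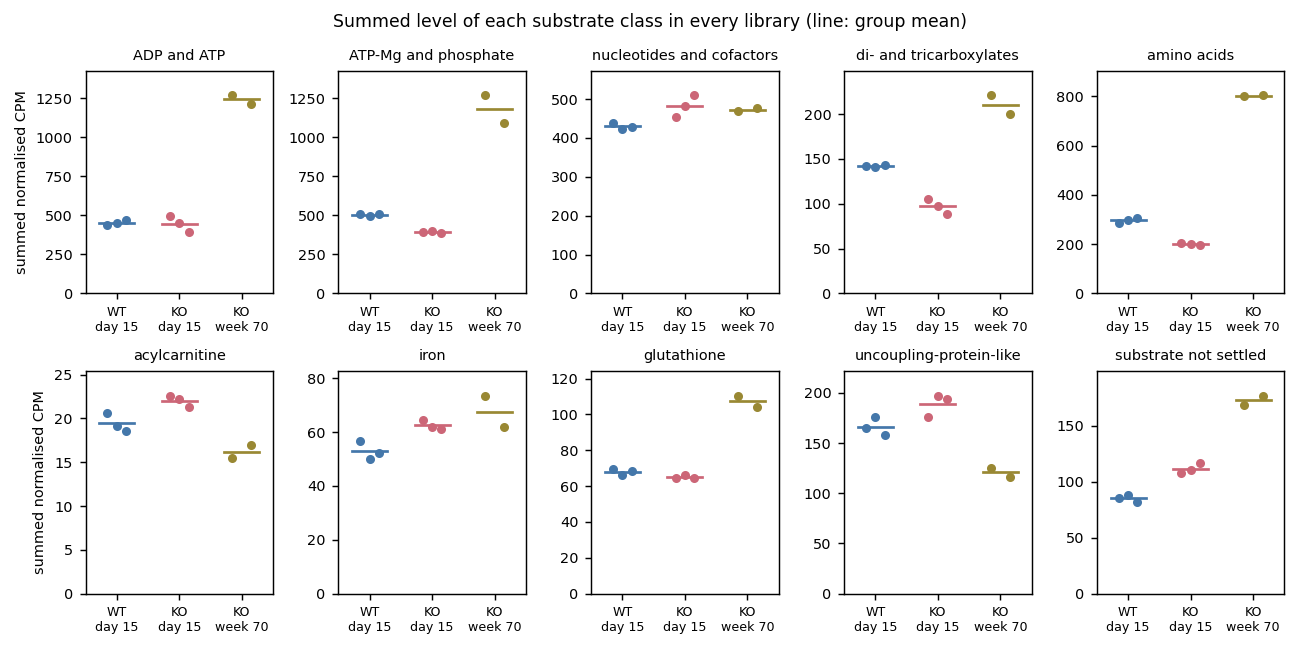
Summed CPM (TMM scale) of the members of each substrate class in every library; points are libraries and lines are group means. The amino acid class sums to 288 to 307 CPM in WT fetuses, 195 to 204 in KO day 15 and 801 and 804 in KO week 70, whereas the uncoupling-protein-like class is lowest at week 70.

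The ADP/ATP carriers exchange ADP for ATP across the inner membrane, and 2 of the 3 in the table were expressed here. Slc25a4, the heart and muscle type that is also abundant in brain, was measured at 309.8, 324 and 345 CPM in WT fetuses, 383, 351 and 300.2 in KO fetuses, and 983 and 922 in KO week 70. The fetal groups overlapped, and the fetal log2 fold change was 0.12 (SE 0.086, edgeR adjusted p 0.25). By age Slc25a4 rose 2.58-fold (log2 1.37, SE 0.11, adjusted p 7.68e-07). Slc25a5, the form of proliferating cells, was measured at 128, 126 and 127 CPM in WT fetuses, 113, 101 and 91.2 in KO fetuses, and 286 and 294 in KO week 70. All KO fetal libraries lay below all WT libraries, and both week 70 libraries lay above every fetal one. Slc25a5 fell by 0.28 on the log2 scale in the fetal knockout (SE 0.072, adjusted p 0.00606) and rose 2.66-fold by age (log2 1.41, SE 0.098, adjusted p 2.51e-07). Under upper-quartile scaling, the fetal call of Slc25a5 ended (-0.11, adjusted p 0.188) and Slc25a4 was called higher (0.29, adjusted p 0.0104), so the direction of this class at day 15 depends on the scaling. With the length and GC correction the log2 fold change of Slc25a5 was -0.68 (adjusted p 4.02e-05), and the class median was -0.25 against -0.08 without it. Slc25a31, the germ cell form, had no more than 10 counts in any library.

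Per kilobase of transcript, which allows genes to be compared, Slc25a4 was the most abundant member in every group, at 169.5 ± 9.11 CPM per kb in WT day 15 (SD, n = 3), 179 ± 21.6 in KO day 15 (n = 3) and 495 ± 22.4 in KO week 70 (n = 2). Slc25a3 came next with 166 ± 4.11, 149 ± 2.84 and 270.1 ± 0.379 CPM per kb in the same order of groups. In WT day 15 the levels per kilobase of Slc25a4 and Slc25a3 differed by less than their spread, whereas Slc25a5 followed at 102.5 ± 0.849 CPM per kb. At week 70, Slc25a5 and Slc25a23 stood at 234 ± 4.76 and 198 ± 36.8 CPM per kb, a difference of about the spread of Slc25a23.

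The 250 bases before the start of the abundant pair Slc25a4 and Slc25a5 are shown because both were among the 3 most abundant members per kilobase in every group. They are RefSeq sequences on GRCm38.p6, at chr8:46211063-46211312 on the minus strand for Slc25a4 and at chrX:36795347-36795596 on the plus strand for Slc25a5, and capitals mark motif matches.
Slc25a4: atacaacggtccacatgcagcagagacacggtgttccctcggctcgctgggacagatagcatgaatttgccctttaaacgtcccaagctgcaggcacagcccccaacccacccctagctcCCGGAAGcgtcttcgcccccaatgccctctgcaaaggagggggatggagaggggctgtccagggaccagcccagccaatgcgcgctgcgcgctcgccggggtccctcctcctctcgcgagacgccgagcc
Slc25a5: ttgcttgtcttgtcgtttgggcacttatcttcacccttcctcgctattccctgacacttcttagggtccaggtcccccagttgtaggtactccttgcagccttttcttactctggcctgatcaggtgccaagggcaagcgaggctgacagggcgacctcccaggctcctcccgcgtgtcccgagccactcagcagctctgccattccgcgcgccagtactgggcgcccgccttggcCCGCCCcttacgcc
Windows of this kind were found for 36 of the 47 members, with 46 starts, and were searched on both strands. The capitals in Slc25a4 match the ETS motif CCGGAAG, which 6 of 46 carrier starts held (13%, against 6.91% of 32851 windows of all genes). The capitals in Slc25a5 match the GC box GGGCGG on the other strand, which 32 of 46 carrier starts held (69.6%, against 32.7%). The E-box CACGTG was found at 8 starts (17.4%, against 6.02%) and the TATA motif TATAAA at 2 (4.35%, against 12.4%). These matches describe letters and are not evidence of binding.

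The phosphate and ATP-Mg carriers supply the phosphate for ATP synthesis and adjust the adenine nucleotide content of the matrix. At day 15, 2 of 4 tested members fell in the knockout and none rose (32.5% of all genes fell and 30.1% rose), with a class median of -0.48, which was -0.27 with the length and GC correction and -0.31 under upper-quartile scaling. Slc25a23, a calcium-regulated ATP-Mg/phosphate carrier, was measured at 169.7, 176 and 177 CPM in WT fetuses, 115, 113 and 109.5 in KO fetuses, and 752 and 577 in KO week 70. The 3 groups did not overlap, although the 2 week 70 libraries were far from each other. Slc25a23 fell by 0.59 on the log2 scale in the fetal knockout (SE 0.055, edgeR adjusted p 5.47e-06) and rose 5.49-fold by age (log2 2.46, SE 0.11, adjusted p 1.00e-08). Slc25a25, a paralog with the same substrates, was measured at 52.3, 51.0 and 49.5 CPM in WT fetuses, 31.0, 34.5 and 29.2 in KO fetuses, and 76.8 and 76.4 in KO week 70. It fell by 0.65 at day 15 (SE 0.074, adjusted p 2.45e-05) and rose 2.26-fold by age. With the correction for length and GC content, the fetal changes of Slc25a23 (-0.0013, adjusted p 0.987) and Slc25a25 (-0.16, adjusted p 0.0722) did not pass, and the 2 members called lower were instead Slc25a3 and Slc25a24.

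Slc25a3, the phosphate carrier, was measured at 269.5, 259.5 and 272 CPM in WT fetuses, 238, 246 and 238 in KO fetuses, and 435 and 436 in KO week 70. The fetal groups did not overlap, yet the fetal log2 fold change of -0.11 did not pass (adjusted p 0.104); it was -0.38 with the length and GC correction (adjusted p 0.000139) and 0.06 under upper-quartile scaling. Slc25a3 rose 1.69-fold by age (adjusted p 8.33e-06). Slc25a24, the remaining tested paralog, was measured at 14.0, 9.38 and 9.20 CPM in WT fetuses, 7.81, 8.17 and 8.51 in KO fetuses, and 3.82 and 3.65 in KO week 70. WT replicate 1 was the high library for Slc25a24, and it was also the library with the high fibroblast markers, whose part in this value was not tested. Its fetal log2 fold change was -0.37 (adjusted p 0.0772) and ranged from -0.49 to -0.17 when 1 library was left out, and with the length and GC correction it was -0.73 and passed (adjusted p 0.00396). By age it fell by 1.23 on the log2 scale (adjusted p 0.000265). Slc25a41, a further paralog, had at most 11 counts.

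The di- and tricarboxylate carriers move citrate, malate, succinate and oxoglutarate. All 3 members tested at day 15 fell in the knockout (32.5% of all genes did), with a class median of -0.46. With the length and GC correction 1 of the 3 was called lower and the median was -0.12, and under upper-quartile scaling 2 were lower and the median was -0.29. Slc25a11, the oxoglutarate/malate carrier of the malate-aspartate shuttle, was measured at 60.6, 60.8 and 58.1 CPM in WT fetuses, 42.3, 38.5 and 35.0 in KO fetuses, and 146 and 136 in KO week 70. The groups were fully apart, with KO day 15 lowest and KO week 70 highest. Slc25a11 fell by 0.59 at day 15 (SE 0.073, edgeR adjusted p 4.31e-05) and rose 3.40-fold by age (log2 1.77, adjusted p 3.37e-08), and both calls were also made with the length and GC correction. Slc25a1, the citrate carrier that exports citrate for lipid synthesis, was measured at 64.3, 63.9 and 67.7 CPM in WT fetuses, 49.8, 45.9 and 43.0 in KO fetuses, and 53.1 and 44.9 in KO week 70. Week 70 overlapped KO day 15 and lay below every WT library.

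Slc25a1 fell by 0.46 at day 15 (SE 0.066, adjusted p 0.000136), while its log2 fold change by age was -0.01 (adjusted p 0.904). Slc25a10, the dicarboxylate carrier, was lower in the fetal knockout by 0.43 on the log2 scale (adjusted p 0.00594) and higher at week 70 by 0.57 (adjusted p 0.00505). With the length and GC correction these values turned to 0.09 and -0.21 and did not pass, the fetal value of Slc25a1 was -0.12 (adjusted p 0.110), and its value by age was -0.57 (adjusted p 0.000434). Under upper-quartile scaling, neither call of Slc25a10 passed, at -0.25 for the fetal comparison (adjusted p 0.0602) and 0.32 for age (adjusted p 0.0715), and Slc25a1 was called lower at week 70 (-0.26, adjusted p 0.0416). Counts of Slc25a21, the oxodicarboxylate carrier, were 0, 2 and 2 in WT fetuses, 1, 4 and 1 in KO fetuses, and 14 and 23 at week 70. It passed the filter for the comparison of ages only through the week 70 libraries, so its rise is given as counts alone, although it is among the 27 members counted as higher by age and enters the members' median.

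The amino acid carriers were the class with the most members lower in the fetal knockout. Of 8 tested, 6 fell and none rose at day 15 (all genes: 32.5% lower, 30.1% higher), with a class median of -0.44, which was -0.10 with the length and GC correction and -0.26 under upper-quartile scaling. By age 7 rose and none fell (all genes: 37.6% higher, 44.4% lower), with a median of 1.21. Slc25a12, the calcium-regulated aspartate/glutamate carrier of brain and muscle, was measured at 80.0, 82.6 and 91.5 CPM in WT fetuses, 58.0, 57.8 and 55.3 in KO fetuses, and 216 and 237 in KO week 70. The 3 groups did not overlap. Slc25a12 fell by 0.53 in the fetal knockout (SE 0.066, edgeR adjusted p 4.69e-05) and rose 3.71-fold by age (log2 1.89, adjusted p 8.12e-09). Slc25a13, its paralog best known in liver, was measured at 9.35, 8.29 and 8.74 CPM in WT fetuses, 3.39, 3.83 and 5.10 in KO fetuses, and 2.5 and 6.48 in KO week 70. The fetal groups did not overlap, and the 2 week 70 libraries fell on either side of KO day 15. Slc25a13 fell by 1.05 at day 15 (SE 0.17, adjusted p 0.000373). Its log2 fold change by age was 0.02 (SE 0.38, adjusted p 0.956) and became -0.81 (adjusted p 0.0378) without KO week 70 replicate 2.

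Slc25a22, the glutamate carrier abundant in neurons, was measured at 94.9, 100.2 and 99.4 CPM in WT fetuses, 60.2, 55.2 and 51.8 in KO fetuses, and 241 and 243 in KO week 70. The groups were apart, with KO day 15 lowest. It fell by 0.78 at day 15 (SE 0.065, edgeR adjusted p 2.41e-06), the smallest adjusted p of the family in that comparison, and rose 4.05-fold by age (adjusted p 6.75e-09). Slc25a18, the second glutamate carrier, which in brain is known from astrocytes, was measured at 3.65, 4.74 and 4.02 CPM in WT fetuses, 4.06, 3.78 and 4.17 in KO fetuses, and 149 and 132 in KO week 70. The fetal groups overlapped, with a log2 fold change of -0.0075 (SE 0.18, adjusted p 0.974), and both week 70 libraries lay far above all fetal ones. Slc25a18 rose 32.7-fold by age (log2 5.03, SE 0.11, adjusted p 9.91e-11), the largest change of the family. Per kilobase it ranked 37 among the 47 members in WT day 15 and 7 in KO week 70.

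Markers of brain cell types also differed between the groups, some in the direction of these carriers and some against it. Their part in the results was not tested. Of all genes, 30.1% rose and 32.5% fell in the fetal knockout, and 37.6% rose and 44.4% fell by age. All 8 astrocyte markers rose by age, from 264 to 276 CPM summed in KO day 15 to 8045 and 8684 in KO week 70, and 6 of 8 had fallen in the fetal knockout from 592 to 671 in WT, with 1 higher. All 8 oligodendrocyte markers rose by age, from 92.1 to 99.6 CPM summed to 13804 and 13926. One of them, Mobp, had 2 to 8 counts in every fetal library and passed the filter only through the week 70 libraries. All 8 microglia markers rose by age, from 43.8 to 46.7 CPM to 515 and 646. In the fetal knockout, 2 of 7 tested oligodendrocyte markers rose and 4 fell, and 1 of 8 microglia markers rose and 4 fell. Of 8 neuron markers, 2 rose and 4 fell in the fetal knockout, from 5422 to 5988 CPM summed in WT to 4558 to 4621 in KO, and 5 rose and 3 fell by age, to 8338 and 8719. The 8 progenitor markers all fell in the fetal knockout, from 1431 to 1650 CPM summed in WT to 655 to 670 in KO, and 7 fell and 1 rose by age, to 210 and 218. Of 8 endothelial markers, 7 fell in the fetal knockout, from 188 to 260 CPM summed to 63.2 to 78.7, and all 8 rose by age, to 321 and 353. No marker on these lists was at 0 in a whole group.

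Among the other amino acid carriers, Slc25a29, a carrier of basic amino acids, was measured at 14.2, 15.3 and 15.2 CPM in WT fetuses, 8.30, 7.61 and 8.05 in KO fetuses, and 16.5 and 18.1 in KO week 70. It fell by 0.86 at day 15 (SE 0.11, edgeR adjusted p 5.53e-05) and rose 2.02-fold by age. Slc25a44, a carrier of branched-chain amino acids, fell by 0.34 at day 15 (adjusted p 0.00109) and rose by 1.41 by age (adjusted p 5.34e-08). Slc25a38, the glycine carrier needed for haem synthesis, fell by 0.28 at day 15 (adjusted p 0.0285) and rose by 0.84 by age (adjusted p 5.34e-05). Slc25a15, the ornithine carrier, overlapped between fetal genotypes and rose by 0.73 by age (adjusted p 0.00194). Of the 6 fetal falls in this class, those of Slc25a13, Slc25a29 and Slc25a22 were also called with the length and GC correction, at -1.08, -0.36 and -0.23. The corrected values of Slc25a12 (-0.16), Slc25a38 (-0.04) and Slc25a44 (0.13) did not pass, and the age change of Slc25a29 did not pass either (0.25). Slc25a38 lost its fetal call in 4 of the 6 fits that left out 1 library and under upper-quartile scaling (-0.11).

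The 250 bases before the starts of Slc25a12 and Slc25a13, which both fell in the fetal knockout, and of Slc25a18, with the largest change by age, are shown for comparison of paralogs and of a fetal-low gene. The RefSeq windows on GRCm38.p6 lie at chr2:71367756-71368005 on the minus strand for Slc25a12, at chr6:6217174-6217423 on the minus strand for Slc25a13 and at chr6:120773518-120773767 on the plus strand for Slc25a18.
Slc25a12: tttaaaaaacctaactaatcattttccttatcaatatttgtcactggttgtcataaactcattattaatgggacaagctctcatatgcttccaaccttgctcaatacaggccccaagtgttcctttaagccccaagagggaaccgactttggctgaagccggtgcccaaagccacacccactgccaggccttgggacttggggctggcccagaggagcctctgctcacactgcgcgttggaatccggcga
Slc25a13: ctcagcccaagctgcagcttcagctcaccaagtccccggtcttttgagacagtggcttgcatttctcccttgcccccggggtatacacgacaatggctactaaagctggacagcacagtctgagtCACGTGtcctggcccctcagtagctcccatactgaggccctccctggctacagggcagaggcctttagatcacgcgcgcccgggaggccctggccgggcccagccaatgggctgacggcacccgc
Slc25a18: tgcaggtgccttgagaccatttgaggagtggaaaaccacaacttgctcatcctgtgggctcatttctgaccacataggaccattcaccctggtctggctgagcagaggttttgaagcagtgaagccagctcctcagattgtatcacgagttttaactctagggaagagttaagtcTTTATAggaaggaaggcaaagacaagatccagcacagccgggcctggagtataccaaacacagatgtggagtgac
Capitals mark the E-box CACGTG in Slc25a13 and the TATA motif TATAAA, read on the other strand, in Slc25a18. No searched motif was found in the window of Slc25a12. The other motifs searched were the CRE TGACGTCA (4.35% of carrier starts, against 1.55%), the ERR half-site AAGGTCA (2.17%, against 4.08%), the YY1 motif AAGATGGC (0%, against 1.56%) and the palindromic NRF1 motif (0%, against 0.782%).

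**Figure D3:**
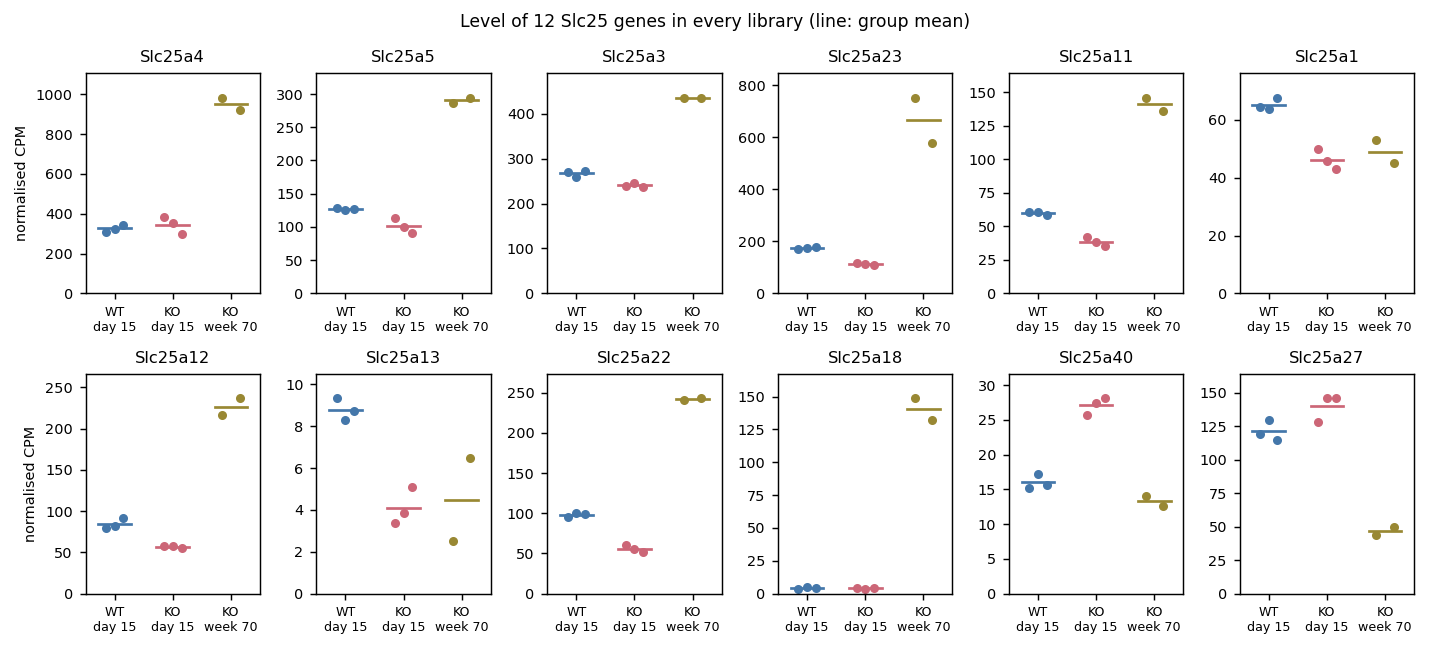
CPM (TMM scale) of 12 Slc25 genes in every library, with lines at the group means. Slc25a22 lies at 94.9 to 100.2 CPM in WT fetuses, 51.8 to 60.2 in KO day 15 and 241 and 243 in KO week 70, and Slc25a18 leaves the range of 3.65 to 4.74 CPM only at week 70.

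Among the carriers of nucleotides and cofactors, 5 of 9 rose in the fetal knockout and none fell (30.1% of all genes rose and 32.5% fell), with a class median of 0.26, which was 0.43 under upper-quartile scaling. Slc25a17, a peroxisomal carrier of coenzyme A and related cofactors, was measured at 58.7, 57.2 and 58.6 CPM in WT fetuses, 72.4, 71.8 and 72.5 in KO fetuses, and 44.8 and 40.0 in KO week 70. The 3 groups did not overlap, with KO day 15 highest. It rose by 0.35 at day 15 (SE 0.052, edgeR adjusted p 0.000161) and fell by 0.87 by age (SE 0.090, adjusted p 6.44e-06), but with the length and GC correction the values were -0.12 and -0.15 and neither passed. Slc25a32, a folate and FAD carrier, was measured at 17.8, 18.7 and 15.2 CPM in WT fetuses, 23.4, 23.1 and 22.9 in KO fetuses, and 14.2 and 22.3 in KO week 70. All KO fetal libraries lay above all WT ones, and the 2 week 70 libraries were far apart. Slc25a32 rose by 0.47 at day 15 (adjusted p 0.00185); its fall of 0.45 by age (adjusted p 0.0339) was lost when any library except KO week 70 replicate 2 was left out, with adjusted p from 0.0680 to 0.311, and with the length and GC correction its value by age was 0.16.

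Of the pyrimidine nucleotide carriers, Slc25a33 was measured at 9.16, 9.43 and 11.3 CPM in WT fetuses, 12.2, 11.8 and 12.9 in KO fetuses, and 55.8 and 48.3 in KO week 70. Slc25a36 was measured at 145, 126 and 141 CPM in WT fetuses, 138, 161 and 178 in KO fetuses, and 55.2 and 62.5 in KO week 70. By age the pair moved apart, Slc25a33 rising 3.96-fold (log2 1.98, adjusted p 4.97e-08) while Slc25a36 fell by 1.53 on the log2 scale (SE 0.13, adjusted p 9.76e-07). Their fetal rises, 0.34 for Slc25a33 (adjusted p 0.0330) and 0.26 for Slc25a36 (adjusted p 0.0353), were lost when single libraries were left out, in 5 and 4 of 6 such fits. The fetal groups overlapped for Slc25a36, and its corrected fetal value was 0.0041.

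By age the class as a whole had 5 of 9 members higher and 3 lower (all genes: 37.6% and 44.4%), and 3 higher and 2 lower with the length and GC correction. Slc25a16, linked to coenzyme A, and Slc25a26, the S-adenosylmethionine carrier, did not pass at day 15 and rose by 1.39 (adjusted p 4.90e-07) and 1.37 (adjusted p 1.46e-05) by age. The fetal value of Slc25a16, 0.19, was called under upper-quartile scaling, at 0.36 (adjusted p 0.00674). It was also called among protein-coding genes only (0.305, adjusted p 0.0137) and without KO day 15 replicate 1 (0.25, adjusted p 0.0458). With the length and GC correction it was -0.13 and did not pass. Slc25a42, a coenzyme A carrier, rose by 0.58 by age (adjusted p 0.000724) but had a corrected value of -0.12, and its fetal value of 0.09 (adjusted p 0.411) became 0.64 (adjusted p 0.000442) with the correction. Slc25a51, the NAD carrier, was level in all 3 groups, at 125 to 132 CPM in WT fetuses, 124 to 135 in KO fetuses, and 126 and 132 in KO week 70. Its log2 fold changes were 0.03 (SE 0.060, adjusted p 0.719) and -0.09 (SE 0.086, adjusted p 0.352). Under upper-quartile scaling these were 0.20 (adjusted p 0.0131) and -0.34 (adjusted p 0.00402). With the length and GC correction they were 0.28 (adjusted p 0.00177) and -0.22 (adjusted p 0.0227). Among protein-coding genes only, the value by age was -0.36 (adjusted p 0.00302). DESeq2 gave 0.02 and -0.12 and called neither. The level course of Slc25a51 therefore depends on the scaling, the correction and the genes fitted.

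Both proteins of the glutathione pair import glutathione into mitochondria, and their genes went in opposite directions. Slc25a39 was measured at 54.4, 48.8 and 52.6 CPM in WT fetuses, 38.6, 38.9 and 36.6 in KO fetuses, and 96.4 and 91.6 in KO week 70. Slc25a40 was measured at 15.2, 17.2 and 15.6 CPM in WT fetuses, 25.7, 27.4 and 28.1 in KO fetuses, and 14.0 and 12.6 in KO week 70. For both genes the 3 groups did not overlap. At day 15 Slc25a39 fell by 0.41 (SE 0.064, edgeR adjusted p 0.000259) and Slc25a40 rose 1.74-fold (log2 0.80, SE 0.092, adjusted p 2.55e-05), the largest rise of the family. By age Slc25a39 rose by 1.20 (adjusted p 2.42e-07) and Slc25a40 fell by 1.12 (adjusted p 1.09e-05). The transcript of Slc25a39 has a GC content of 59.7% and that of Slc25a40 39.7%, and with the length and GC correction the fetal values were -0.03 and 0.09 and did not pass. The corrected values by age were 0.59 (adjusted p 6.12e-05) for Slc25a39 and -0.0026 (adjusted p 0.985) for Slc25a40.

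The mitoferrins carry iron into the matrix. Slc25a28, the broadly expressed mitoferrin 2, was measured at 36.0, 35.3 and 35.6 CPM in WT fetuses, 45.5, 41.0 and 39.9 in KO fetuses, and 39.7 and 34.5 in KO week 70. It rose by 0.28 at day 15 (SE 0.069, edgeR adjusted p 0.00483) and fell by 0.28 by age (SE 0.11, adjusted p 0.0282), and the fall was lost without KO day 15 replicate 1, KO day 15 replicate 2 or KO week 70 replicate 2. With the length and GC correction these values were 0.66 (adjusted p 1.87e-05) and -0.92 (adjusted p 1.70e-05), and under upper-quartile scaling 0.45 and -0.53, all called. Slc25a37, mitoferrin 1, which serves haem synthesis in red cell precursors, was measured at 20.6, 14.6 and 16.5 CPM in WT fetuses, 19.1, 20.9 and 21.3 in KO fetuses, and 33.8 and 27.3 in KO week 70. WT replicate 1 reached into the KO range, and the fetal log2 fold change was 0.29 (SE 0.12, adjusted p 0.0653) but 0.56 with the length and GC correction (adjusted p 0.00248). By age Slc25a37 rose by 0.48 (adjusted p 0.00527), which did not pass with that correction (0.30) or under upper-quartile scaling (0.23). Erythroid markers differed in the same libraries, with 6 of 10 tested higher and 2 lower in the fetal knockout (all genes: 30.1% and 32.5%). These markers summed to 1044 to 1325 CPM in WT fetuses, 3600 to 4426 in KO fetuses, and 492 and 778 in KO week 70, where Hbb-bh1 and Hba-x were at 0. Their part in the values of Slc25a37 was not tested.

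Slc25a20, the carnitine/acylcarnitine carrier needed to burn long-chain fatty acids, was measured at 20.6, 19.2 and 18.6 CPM in WT fetuses, 22.6, 22.2 and 21.2 in KO fetuses, and 15.4 and 17.0 in KO week 70. The groups did not overlap, and week 70 was lowest. The fetal rise of 0.22 (SE 0.084, edgeR adjusted p 0.0429) was lost in 4 of 6 fits that left out a library and with the length and GC correction (0.12). The fall by age was 0.54 (SE 0.12, adjusted p 0.00188).

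The relatives of the uncoupling proteins were the class with the lowest median by age, at -1.08. Slc25a27, known as UCP4 and found mainly in brain, was measured at 119, 129.6 and 115 CPM in WT fetuses, 128, 146 and 146 in KO fetuses, and 43.8 and 49.8 in KO week 70. The fetal groups overlapped slightly, and both week 70 libraries were far below them. It rose by 0.25 at day 15 (SE 0.075, edgeR adjusted p 0.0139), a call lost without WT replicate 3 or KO replicate 2, and fell by 1.68 by age (SE 0.11, adjusted p 1.21e-07), the largest fall of the family. Slc25a30 was level between fetal genotypes (log2 0.0087, SE 0.090) and fell by 1.08 by age (adjusted p 3.73e-05). Slc25a14, known as UCP5, was measured at 20.6, 19.9 and 19.1 CPM in WT fetuses, 24.6, 23.9 and 23.3 in KO fetuses, and 69.8 and 53.3 in KO week 70. It rose by 0.31 at day 15 (adjusted p 0.00620), which became 0.06 with the length and GC correction, and by 1.26 by age (adjusted p 3.17e-06).

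Of the 6 tested members whose substrate is not settled, 1 rose at day 15 and none fell (all genes: 30.1% and 32.5%). This was Slc25a46, an outer membrane protein that takes part in mitochondrial fission and fusion, measured at 53.5, 57.4 and 52.6 CPM in WT fetuses, 71.8, 77.5 and 84.6 in KO fetuses, and 119 and 127 in KO week 70. The groups did not overlap. Slc25a46 rose by 0.56 at day 15 (SE 0.075, edgeR adjusted p 8.45e-05) and by 0.56 by age (SE 0.096, adjusted p 0.000303). With the length and GC correction these became 0.20 and 1.29, and both passed. Counts of Slc25a34 were 11, 13 and 10 in WT fetuses, 10, 13 and 18 in KO fetuses, and 169 and 207 at week 70, and it rose 14.8-fold by age (log2 3.89, SE 0.28, adjusted p 3.64e-07). Slc25a35 and Slc25a45, also at low levels, rose by 1.51 (adjusted p 0.00119) and 0.86 (adjusted p 0.0223) by age, and the call of Slc25a45 was lost in 3 of 5 fits that left out a library and with the length and GC correction (0.46). Slc25a47 fell by 0.75 by age (adjusted p 0.0141), a call lost without KO day 15 replicate 1 or KO week 70 replicate 2. Slc25a53 passed in neither comparison, though its corrected value by age was 0.45 (adjusted p 0.00814). Its fetal value of 0.21 (adjusted p 0.0732) was called under upper-quartile scaling, at 0.39 (adjusted p 0.00455). It was also called among protein-coding genes only (0.33, adjusted p 0.0101) and without KO day 15 replicate 3 (0.28, adjusted p 0.0386). With the length and GC correction it was 0.04 and did not pass. The correction also gave fetal calls for Slc25a34 (1.08, adjusted p 0.0343) and Slc25a47 (0.39, adjusted p 0.0250).

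**Figure D4:**
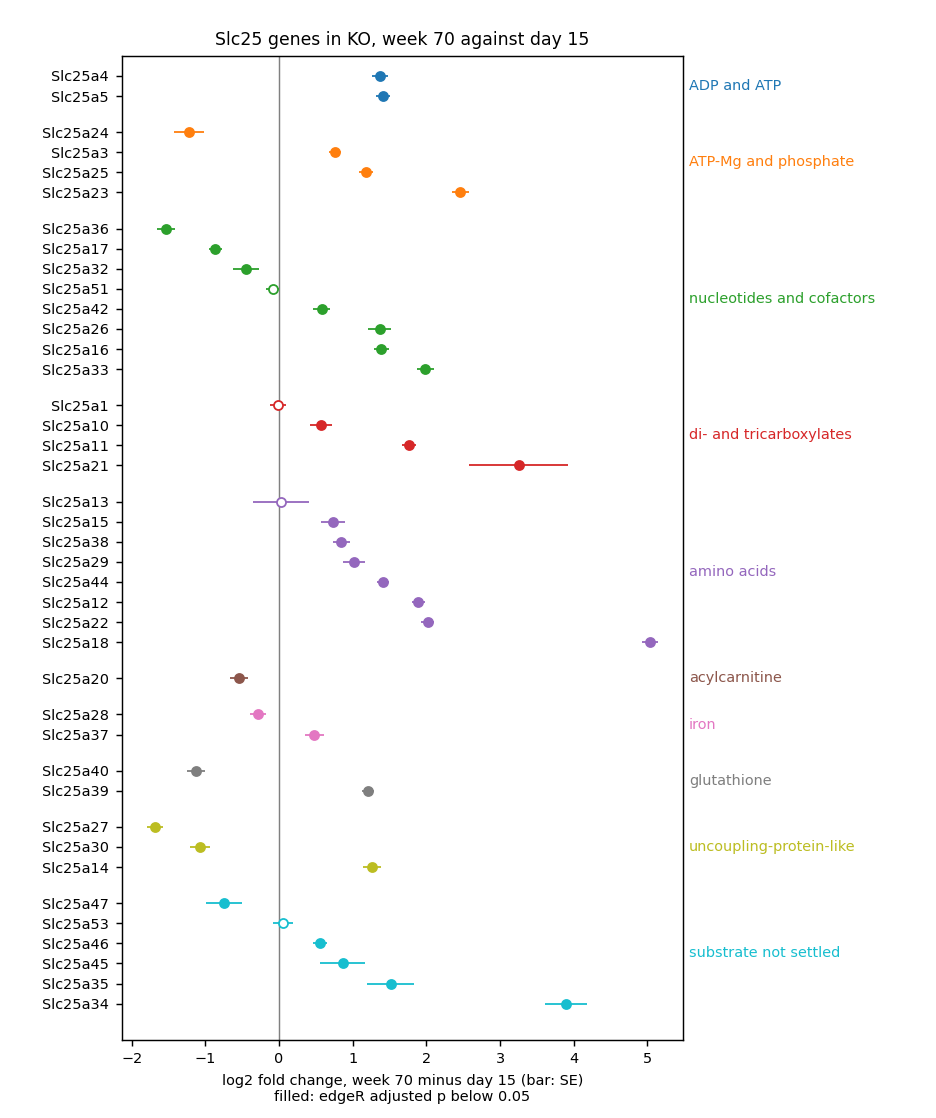
Fitted log2 fold change of the tested Slc25 genes in knockout brain, all but 1, week 70 minus day 15, grouped by substrate class; bars are the standard error and filled points passed edgeR's adjusted p of 0.05. Slc25a18 stands at 5.03, Slc25a27 at -1.68, and the amino acid class has no called gene below 0.

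Several carriers have paralogs with the same or a like substrate, in 9 groups of the family. The share of each gene in the counts per kilobase of its paralog group was computed within each library, and such a share does not depend on scaling. The shares were computed without the length and GC correction, so a library's trend with GC content remains in them. In the glutamate pair, Slc25a18 made up 5.82 ± 0.61% in WT day 15 (SD, n = 3), 9.58 ± 0.87% in KO day 15 (n = 3) and 46.0 ± 2.3% in KO week 70 (n = 2). In the pyrimidine nucleotide pair, Slc25a33 made up 16.8 ± 1.7%, 17.7 ± 1.7% and 70.9 ± 3.9% in the same order of groups. Among the uncoupling-protein-like genes, Slc25a14 went from 18.4 ± 0.88% and 19.4 ± 1.6% to 63.1 ± 6.6%, and Slc25a27 from 69.8 ± 0.95% and 70.5 ± 1.5% to 30.3 ± 5.3%. In these 3 groups the member with the larger share differed, or came near to it, between fetal and week 70 libraries. For the pyrimidine nucleotide pair this depends on the division by transcript length, 1887 bases for Slc25a33 and 5227 for Slc25a36. Undivided counts of Slc25a33 and Slc25a36 were 847 and 838 in KO week 70 replicate 1. In replicate 2 they were 701 and 906, so neither gene had the larger count in both libraries.

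In the glutathione pair, Slc25a39 made up 84.2 ± 1.6% in WT fetuses, 69.8 ± 1.5% in KO day 15 and 92.1 ± 0.29% in KO week 70. The transcripts of Slc25a39 and Slc25a40 differ in GC content, at 59.7% and 39.7%. Their fetal log2 fold changes with the length and GC correction were -0.03 and 0.09. Slc25a12 made up 82.5 ± 1.5%, 87.2 ± 2.7% and 96.2 ± 2.1% of the aspartate/glutamate carriers. Slc25a4 made up 62.3 ± 1.4%, 68.5 ± 0.62% and 67.8 ± 1.4% of the ADP/ATP carriers. Each group was tested through 1 gene: Slc25a2, Slc25a4, Slc25a12, Slc25a14, Slc25a18, Slc25a23, Slc25a28, Slc25a33 or Slc25a39. The shares of 5 of these 9 genes did not overlap between fetal genotypes, namely Slc25a4, Slc25a12, Slc25a18, Slc25a39 and Slc25a2 with its few counts. By age the shares of 8 of the 9 did not overlap, all except Slc25a4. Shares were computed for these paralog groups alone, so no count over all genes stands beside these. Outside these tests, the fetal share of Slc25a30 in its group also did not overlap, at 11.8 ± 0.11% in WT and 10.1 ± 0.45% in KO, and the share of Slc25a31 did not overlap by age, at under 0.1% in all 5 libraries. The exact two-sided permutation p was 0.1 for each of the 5 fetal differences and 0.2 for each of the 8 by age, the smallest that 3 against 3 and 3 against 2 libraries allow, and the smallest adjusted p over the 18 tests was 0.277. When counts of aligned processed pseudogenes were added to their parents, an alternative chosen after seeing the data, the share of Slc25a4 differed by 3.13 points by age instead of -0.669, and the age groups then did not overlap for any of the 9 genes.

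**Figure D5:**
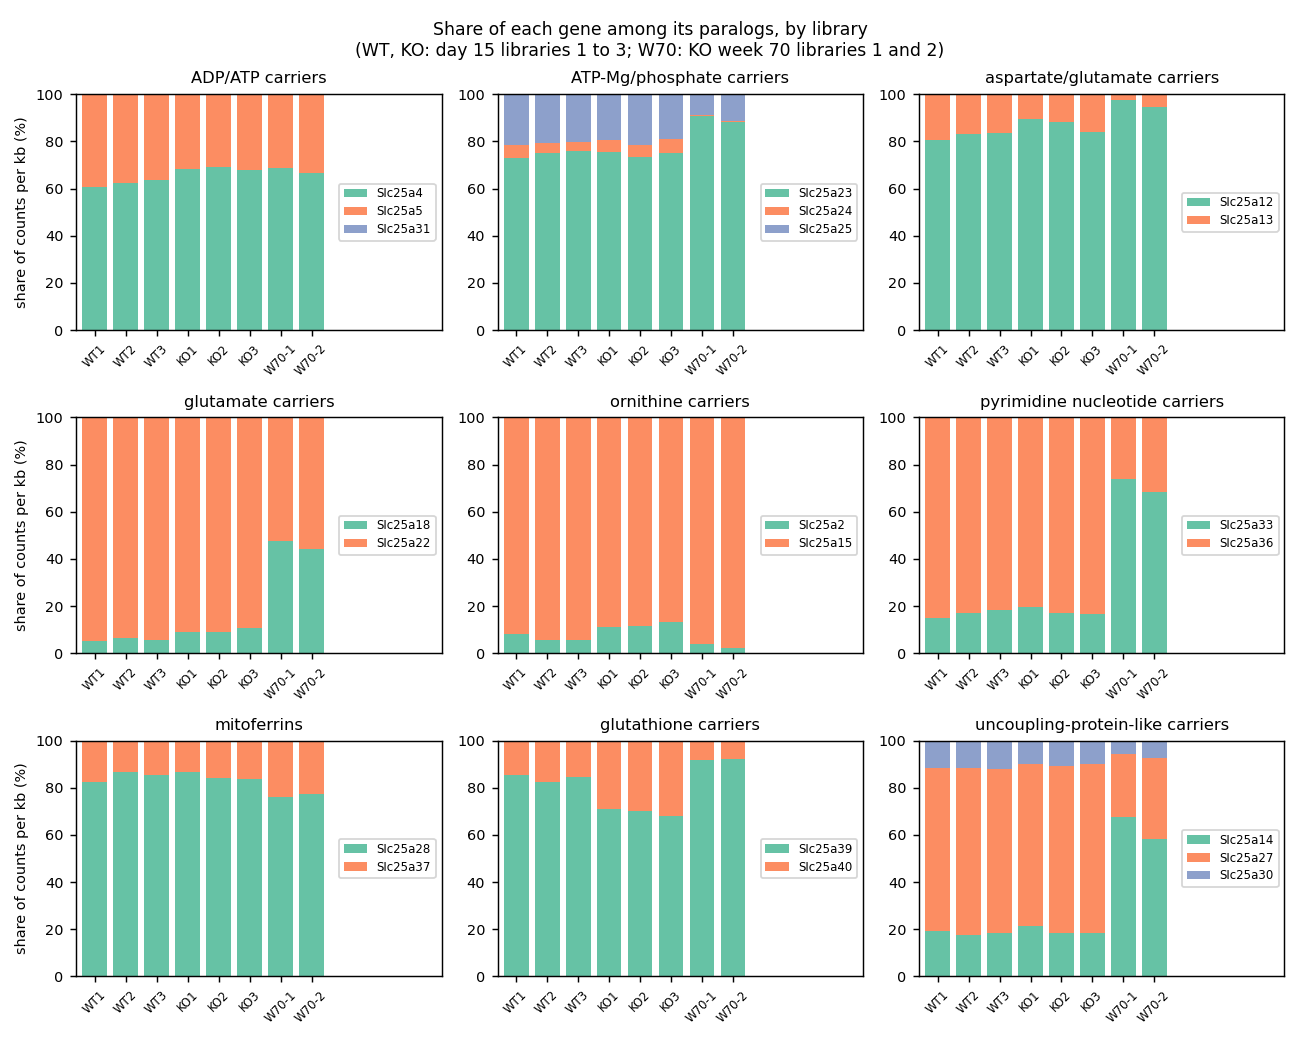
Share of each gene in the summed counts per kilobase of its paralog group (%), as stacked bars for each library. Slc25a18 takes 5.35% to 6.51% of the glutamate pair in WT fetuses, 9.02% to 10.6% in KO fetuses, and 47.6% and 44.4% in KO week 70.

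Reads can be shared between some carriers and other genes. By alignment of transcripts, 9 processed pseudogenes matched 5 carriers, and 5 of the 9 matched Slc25a5. Counts of the most abundant of these, Gm5560, were 374, 421 and 400 in WT fetuses, 294, 318 and 233 in KO fetuses, and 31 and 6 at week 70. Gm13217, a copy of Slc25a36, had 260 to 340 counts at day 15 and 4 and 10 at week 70. Exons of Slc25a11 overlap 189 bases of Rnf167 on the opposite strand, those of Slc25a25 overlap 379 bases of Naif1 and those of Slc25a18 overlap 32 bases of Atp6v1e1. Those of Slc25a26 overlap 144 bases of Lrig1, also on the opposite strand. Lrig1 had 296 to 952 counts over the libraries, against 110 to 279 of Slc25a26. The use of strand in the counting is not given in the sources used here, so these levels are uncertain to that extent.

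The machinery that brings carriers into the inner membrane was measured as well. Carrier precursors pass the outer membrane through the TOM complex, are escorted by small TIM chaperones and are inserted by the TIM22 complex. Of 15 tested genes of this import machinery, 12 rose and 2 fell in the fetal knockout, with a median log2 fold change of 0.64, against 0.03 over all genes and 30.1% of all genes higher. Timm8b, a small TIM chaperone, was measured at 28.1, 28.7 and 27.6 CPM in WT day 15 and 81.7, 76.8 and 76.8 in KO fetuses, and rose by 1.52 (edgeR adjusted p 2.22e-08). The outer membrane subunits Tomm5 and Tomm7 rose by 1.45 and 1.41, whereas Tomm40, the pore itself, fell by 0.57 and Timm29, a subunit of the TIM22 complex, fell by 0.83. The length and GC correction reduced these to 0.92 for Timm8b, 0.73 for Tomm5, 0.61 for Tomm7 and -0.56 for Timm29, all called, and to -0.12 for Tomm40, which did not pass. With the length and GC correction, the same 12 rose and 2 fell, with a median of 0.50. These 2 were Timm29 and the receptor gene Tomm70a, at -0.24 (edgeR adjusted p 0.00612) against -0.06 (adjusted p 0.365) without the correction. By age 8 rose and 1 fell (all genes: 37.6% and 44.4%), with a median of 0.40. These counts became 12 and 0 with the correction (median 0.81) and 6 and 3 under upper-quartile scaling (median 0.15).

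The enzymes that work with the carriers of the malate-aspartate and glycerol phosphate shuttles were also measured. In the fetal knockout, 5 of the 7 fell and 2 rose (all genes: 32.5% and 30.1%), with a median of -0.75, which was -0.43 with the length and GC correction. Got1 and Got2, the aspartate aminotransferases of cytosol and mitochondria, fell by 0.85 and 0.84, Mdh2, the mitochondrial malate dehydrogenase, fell by 0.87, and Mdh1, its cytosolic counterpart, rose by 0.83 (edgeR adjusted p 1.38e-06). Gpd2 and Gpd1l fell by 0.75 and 0.73, and Gpd1 rose by 0.46 (adjusted p 0.0349). By age all 7 rose (37.6% of all genes did), with a median of 2.87, and Got1 rose by 4.16. The same 5 and 2 directions were called with the length and GC correction and under upper-quartile scaling.

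Of 14 other tested mitochondrial transporters and relatives, 6 rose and 7 fell at day 15 (all genes: 30.1% and 32.5%), with a median of -0.09. The counts were 4 and 4 with the length and GC correction (median -0.0173) and 7 and 5 under upper-quartile scaling, where the median turned to 0.09. By age 12 of 15 rose and 1 fell (all genes: 37.6% and 44.4%), with a median of 1.09, and 1 of the 12, Ucp3, passed the filter only through the week 70 libraries. The pyruvate carrier subunits Mpc1 and Mpc2 rose in the fetal knockout by 0.78 and 0.79, and Mpc1 did not pass with the length and GC correction (0.21). The outer membrane channel Vdac1 fell by 0.40 and its paralog Vdac3 rose by 0.94, or 0.41 with the correction. Ucp2, an uncoupling protein of the same superfamily whose symbol keeps it out of the Slc25a set, was measured at 26.5, 24.0 and 25.3 CPM in WT fetuses, 10.7 to 12 in KO fetuses, and 37.3 and 40.6 in KO week 70. It fell by 1.11 at day 15 (edgeR adjusted p 2.25e-06) and rose by 1.68 by age (adjusted p 2.66e-07), and with the correction these values were -0.49 and 0.94, both called. Ucp3 had 0 to 2 counts in every fetal library and 109 and 92 at week 70. The sideroflexins, a family of another fold that includes serine carriers, split by age. Sfxn5, Sfxn3 and Sfxn1 rose by 3.82, 0.42 and 0.24, Sfxn2 fell by 2.85, and Sfxn4 was not called (0.0051). Under upper-quartile scaling the values of Sfxn3 (0.17) and Sfxn1 (-0.0057) did not pass.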

How the data were processed

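The values used were the unnormalised counts per gene that the authors deposited as 1 table covering all 8 libraries. The submitters' processing notes name FastQC, cutadapt, Trimmomatic, HISAT2, featureCounts and edgeR and the builds GRCm38 and GRCm39, without versions or roles. The annotation, the strand setting and the treatment of multi-mapping reads are not given in the sources used here. No column was left unassigned, and groups followed the sample titles.

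Counts were filtered with filterByExpr, scaled by TMM and tested with the quasi-likelihood test of edgeR 4.0.16 in R 4.3.3, with 6 libraries for genotype and 5 for age. Standard errors are those implied by the F statistic. Transcript length, GC content, overlaps and pseudogenes (minimap2 2.31, at least 50% aligned at 85% identity) came from GENCODE release M 21 on GRCm38, which matched 33365 genes (97.3%) and all 47 members; no coordinates of the authors' build were used. Promoter windows came from RefSeq on GRCm38.p6. The length and GC trend of each library was fitted by mgcv 1.9.3 and supplied to edgeR as the offset. Tested on simulated data in which 200 genes differed by a log2 of 1, edgeR recovered 87% of them at day 15 and 85% by age. There 19258 and 19192 genes were tested, and 3.87% and 5.03% of calls were false. In the libraries themselves, 62.6% of genes were called at day 15 and 82.0% by age. Whether the rates from simulation hold where so many genes are called was not tested.

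Members, substrate classes, gene lists and tests were chosen with earlier results of these data known. Full values were given for every tested ADP/ATP carrier, for up to 3 members of each class with the smallest fetal adjusted p, for up to 2 of each class with the largest change by age among those called, and for members of paralog groups; 1 member that is counted in the totals is not reported here. Pseudogenes and overlapping genes were named after their values were seen. Alternatives were scaling by RLE or the upper quartile, leaving out the filter or requiring a mean of 10 counts, testing with DESeq2 1.42.0, fitting all libraries together, the replicate block, the length and GC offset with and without it, removal of haemoglobin and mitochondrially encoded genes, protein-coding genes only, added pseudogene counts, and each library left out. Paralog shares were also computed without division by length, with the length of the longest transcript, and with added pseudogene counts. Over these settings, 5 of the fetal differences in share moved by at least the larger group SD and 31 did not. Some of the differences by age moved as well. The labels number the replicates in each group without saying that a number marks a shared source.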

Additional observations from a re-analysis of the deposited data

How the results depend on the processing

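Of the family's counts of members and its medians, the following moved by more than the tolerance used (1.5 times for a count). At day 15 the number of members higher in the knockout was 17 under upper-quartile scaling and 4 without a filter, against 11, and the number lower was 7 with the length and GC offset, with or without the replicate block, against 13. The fetal median was 0.26 under upper-quartile scaling and 0.20 among protein-coding genes only. The median by age was 0.50 under upper-quartile scaling, 0.55 without a filter, 0.49 with the length and GC offset, 0.47 with that offset and the replicate block, and 0.47 among protein-coding genes only. With 1 library left out in turn, 6 to 11 members were higher and 12 to 14 lower at day 15, with medians of 0.047 to 0.0954, and 26 to 27 rose and 7 to 9 fell by age, with medians of 0.62 to 0.78. The lowest of these counts, 6 higher, came without KO day 15 replicate 2. DESeq2 called 22 members at day 15 and 37 by age.

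Among the reported members that passed, a direction turned with the length and GC offset: at day 15 Slc25a44 (0.13), Slc25a10 (0.086) and Slc25a17 (-0.12), with 0.13, 0.085 and -0.12 when the replicate block was added, and by age Slc25a42 (-0.12), Slc25a10 (-0.21) and Slc25a32 (0.16), with -0.0208, -0.25 and 0.0867 when the block was added. Slc25a13, which had not passed by age, was called lower in 1 fit and ranged from -0.81 without KO week 70 replicate 2 to 0.57 without replicate 1. The cause was not tested. Same-numbered replicates did not deviate together: the correlation of their deviations was -0.144, -0.169 and -0.146 for the fetal groups and 0.025 and 0.006 for age. No pairing by number was thus seen. With so few libraries in a group, whose deviations from their own mean are tied to each other, these values cannot decide whether a number marks a shared source. With the replicate block 23 members were called at day 15 and 36 by age. At this depth the members that were not tested could not be compared, and only 2 libraries estimate the spread at week 70.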
